A study of Mus musculus with 12 samples.

Results

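Small nucleolar RNAs were followed across mouse neuronal cultures given 1 of 5 antidepressants. The members were all array probe sets annotated with exactly 1 gene symbol that began with Snord or Snora followed by a number. This rule found 75 probe sets of 41345 on the array, for 73 genes. Of these, 47 belonged to C/D box RNAs (Snord) and 28 to H/ACA box RNAs (Snora). Another 43 probe sets held such a symbol together with other symbols and were not members. Snora33 had 2 probe sets, called brighter and dimmer here by their mean signal. The 2 probe sets of Snora19 held identical values on every array, so that they carry 1 measurement.

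RNA came from primary neuronal cultures of brains of ICR (CD-1) mouse embryos, kept in Neurobasal medium with B27 supplement. Drug was added on day in vitro 3, and RNA was taken after 48 h, on day in vitro 5. There were 2 arrays for each of 6 groups. Besides Control, these were Amitriptyline at 5 µM and Imipramine at 5 µM (both tricyclics), Citalopram at 10 µM (which blocks serotonin uptake), Duloxetine at 0.1 µM (which blocks uptake of serotonin and noradrenaline) and Mirtazapine at 50 µM (a tetracyclic). What Control cultures received is not stated in the labels. Nothing in the labels ties the replicates to separate animals or cultures, and the spread between them may therefore be technical.

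Values are RMA log2 signals, in which 1 unit is a change of 2-fold. Neuron markers had a mean signal between 11.64 and 11.91 on every Control and drug array, while microglia markers lay between 6.71 and 6.97 and endothelial markers between 6.29 and 6.67. Astrocyte markers lay between 8.64 and 9.19, oligodendrocyte lineage markers between 7.99 and 8.93, fibroblast and pericyte markers between 6.85 and 7.23, and markers of dividing cells between 8.02 and 8.82. A log2 signal has no true zero, and absence of a cell type cannot be read from it. Duloxetine replicate 2 and Mirtazapine replicate 2 stood apart over the whole array. They were the single lowest of the 12 arrays for 15.6% and 16.7% of all probe sets and the single highest for 19.2% and 19.4%, against at most 9.71% for any other array.

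Small nucleolar RNAs are short nuclear RNAs that base-pair with other RNAs, mainly ribosomal RNA. C/D box RNAs work with fibrillarin, Nop56, Nop58 and Snu13 and direct 2′-O-methylation. H/ACA box RNAs work with dyskerin (Dkc1), Nhp2, Nop10 and Gar1 and direct the conversion of uridine to pseudouridine. A few, such as U8 and U17, act in the cutting of the ribosomal RNA precursor. Most are not transcribed from promoters of their own but are cut out of introns of host genes, many of which encode ribosomal proteins or are spliced RNAs with no conserved protein.

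By the RefSeq gene table of GRCm38.p6, 72 of the 75 members lay inside another gene, and Snord89, Snord118 and Snord13 did not. Of the 75, 62 lay inside a host with a probe set of its own, 46 hosts in all. Where the smallest gene around a member had no such probe set, a larger one that had was taken. This was so for Snord91a (Srr in place of Tsr1), Snord8 (Chd8 in place of Gm26590) and Snord71 (Ap1g1 in place of Gm17344), whose hosts are therefore less certain. Among the hosts were 11 ribosomal protein genes and 9 long noncoding RNAs. The C/D box genes were 48 to 221 bases long (median 68) and the H/ACA box genes 56 to 205 (median 117.5). A probe set within an intron cannot tell the mature small RNA from the unspliced host transcript.

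Sequences are shown for 2 loci that the results describe, and no motif or promoter activity was analysed. The first is the promoter of Snhg12, the start from which 4 members with unlike values are transcribed together. It covers chr4:132308428-132308727 on the plus strand (RefSeq, GRCm38.p6), with the 50 bases from the annotated start in capitals.
Snhg12: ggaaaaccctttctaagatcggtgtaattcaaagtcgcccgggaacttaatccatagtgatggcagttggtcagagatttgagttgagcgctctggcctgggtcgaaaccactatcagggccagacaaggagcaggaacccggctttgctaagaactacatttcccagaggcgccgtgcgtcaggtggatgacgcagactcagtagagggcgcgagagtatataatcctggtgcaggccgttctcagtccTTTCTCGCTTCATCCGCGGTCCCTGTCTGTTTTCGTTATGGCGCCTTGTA
The second is the hairpin of the microRNA Mir1291, which overlaps Snora34. The hairpin covers chr15:98519762-98519878 on the minus strand (RefSeq, GRCm38.p6), and the 73 of its 117 bases that lie inside the Snora34 gene are in capitals.
Mir1291: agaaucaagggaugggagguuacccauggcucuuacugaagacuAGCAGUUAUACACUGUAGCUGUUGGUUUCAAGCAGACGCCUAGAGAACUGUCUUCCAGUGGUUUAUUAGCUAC

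The members varied more between arrays than most probe sets. The standard deviation over the 12 arrays had a median of 0.30 log2 units for C/D box members, 0.25 for H/ACA box members and 0.19 for all probe sets. The range over the arrays reached 1 log2 unit in 18 of 47 C/D box and 13 of 28 H/ACA box members, against 20.6% of all probe sets. Within groups, the median residual standard deviation was 0.25 for C/D box, 0.21 for H/ACA box and 0.18 for all probe sets, so part of the wider spread lay between replicates. The most variable C/D box members were Snord58b (standard deviation 0.85), Snord72 (0.84), Snord1b (0.81), Snord70 (0.74) and Snord61 (0.65). The most variable H/ACA box members were Snora75 (0.70), Snora15 (0.68), Snora34 (0.66), Snora28 (0.46) and Snora69 (0.43).

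Signal differs between probe sets also through the probes themselves, so brightness does not rank amounts of RNA. Mean signals ran from 4.33 (Snord70) to 11.71 (Snord82) among C/D box members and from 4.96 (Snora19) to 11.7 (Snora33 brighter) among H/ACA box members. After Snord82, the brightest C/D box probe sets were Snord49b (11.08), Snord104 (10.53), Snord89 (10.5) and Snord23 (10.02). The next H/ACA box probe sets after Snora33 brighter were Snora21 (10.1), Snora23 (9.41), Snora16a (9.39) and Snora44 (9.27). The 30th percentile of all probe sets was 5.72, and 37 of the 47 C/D box and 23 of the 28 H/ACA box members reached it.

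**Figure D1:**
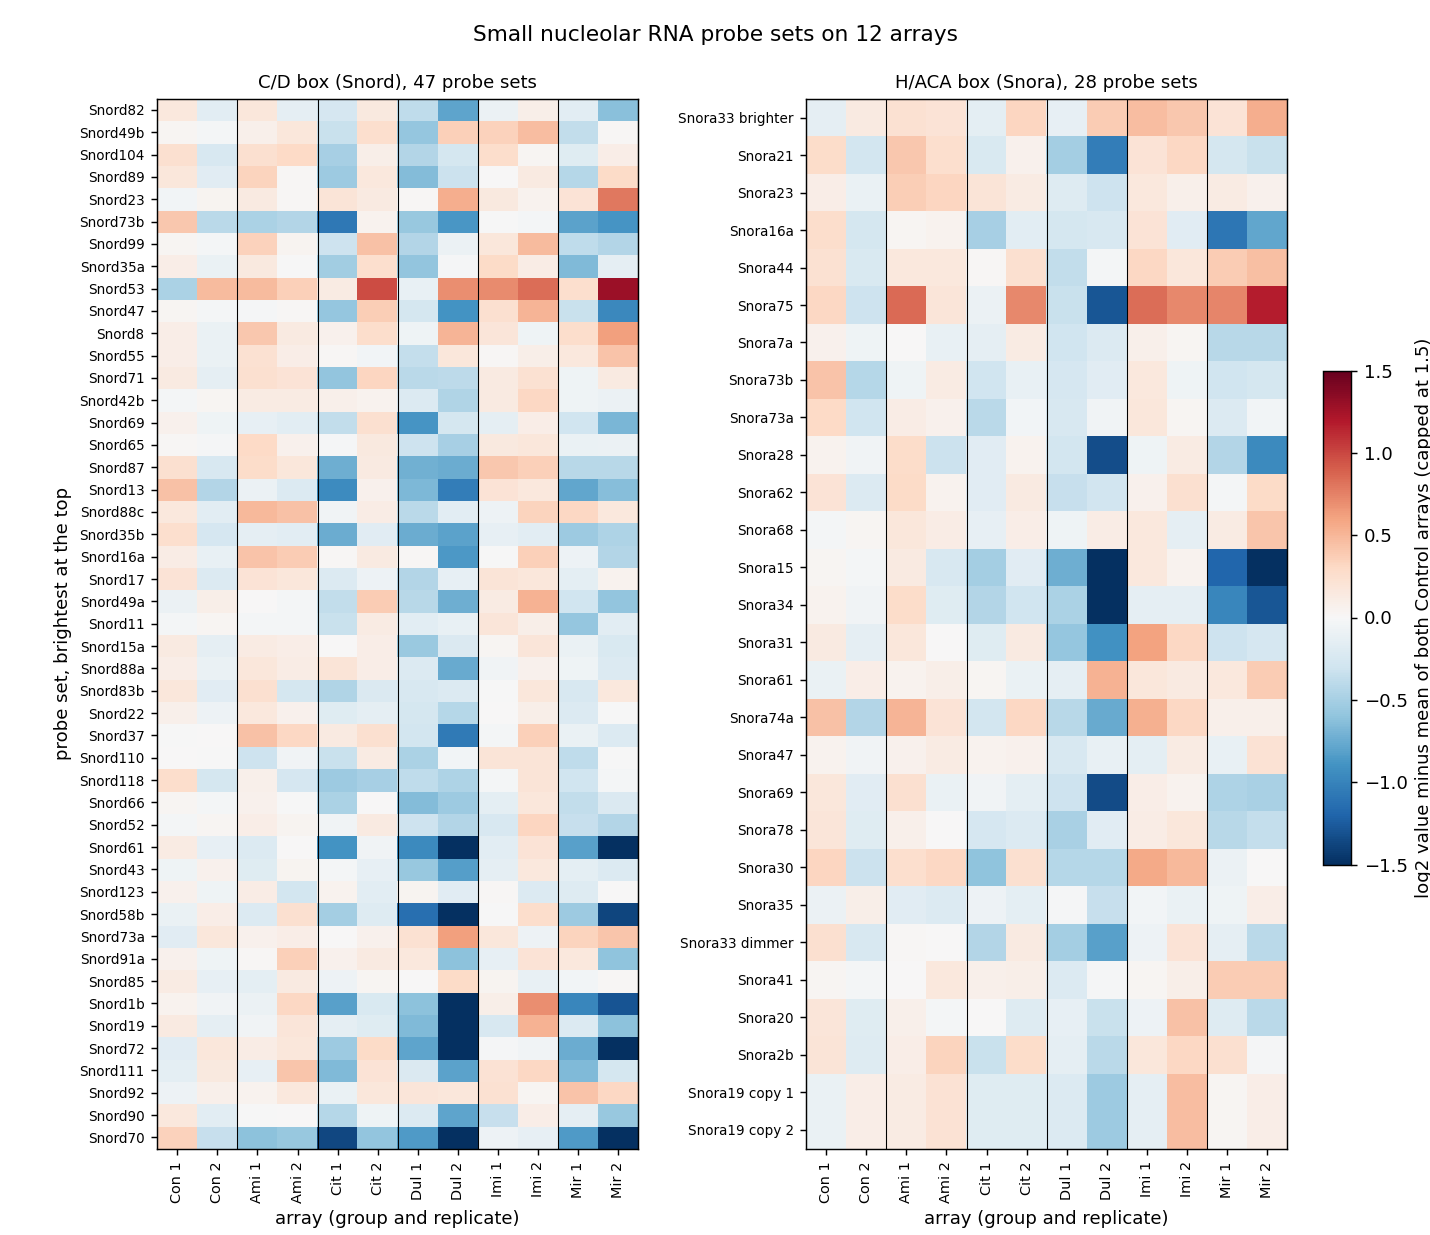
Each row is 1 of the 75 member probe sets and each column 1 of the 12 arrays. Colour gives the log2 value minus the mean of both Control arrays, capped at 1.5 in either direction. The Duloxetine columns are mostly blue in both classes, and 33 of the 75 members had their lowest value on Duloxetine replicate 2.

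Averaged over the members, the lowest signals of both classes were on the Duloxetine arrays. The mean over the C/D box members was 7.88 and 7.73 on the Control arrays and 7.41 and 7.26 on the Duloxetine arrays. Over the H/ACA box members it was 7.87 and 7.61 on the Control arrays and 7.44 and 7.23 on the Duloxetine arrays. Neither class overlapped with Control, and both Duloxetine arrays were below every array of the other groups. The mean over all probe sets lay between 6.82 and 6.88 on every array.

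For Mirtazapine the C/D box mean was 7.55 and 7.51, below both Control arrays. Its H/ACA box mean of 7.59 and 7.61 reached the lower Control array. The Citalopram arrays disagreed, at 7.48 and 7.88 for C/D box and 7.54 and 7.78 for H/ACA box members. Imipramine gave 7.87 and 8.0 for C/D box members, which overlapped with Control, and 7.9 and 7.92 for H/ACA box members, above both Control arrays. Amitriptyline gave 7.88 and 7.87 for C/D box and 7.91 and 7.81 for H/ACA box members, which overlapped with Control. The arrays of Control themselves differed by more in the H/ACA box class than those of Imipramine or Mirtazapine did.

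**Figure D2:**
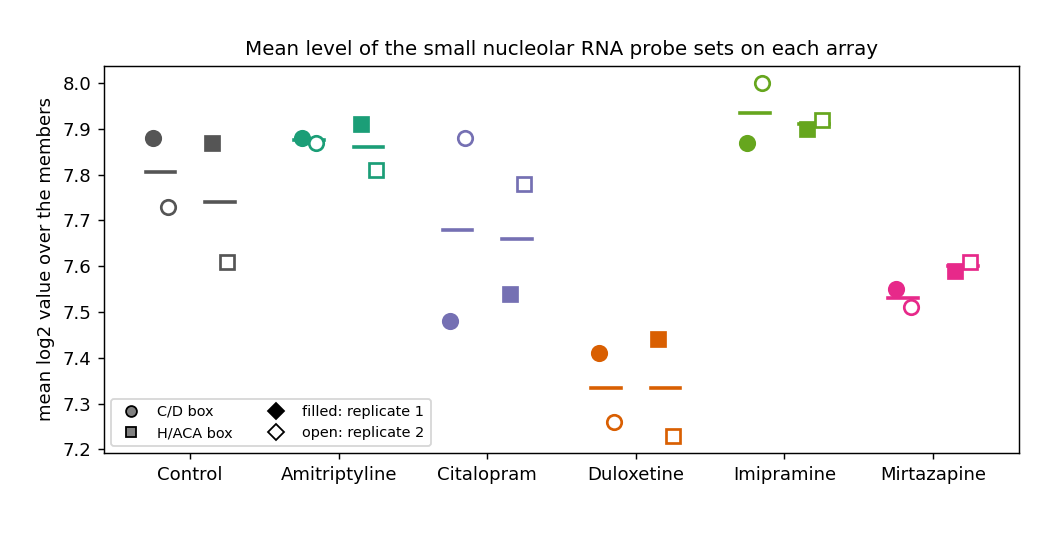
Mean log2 value over the 47 C/D box (circles) and 28 H/ACA box (squares) members on each array; filled symbols are replicate 1, open symbols replicate 2, and bars the mean of both. The Duloxetine arrays sit lowest, between 7.23 and 7.44, and the Citalopram arrays lie far apart.

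No member passed the test in any comparison with Control. At an adjusted p under 0.05 (limma on all 12 arrays, Benjamini-Hochberg over all 41345 probe sets), 0 of the 75 members were called for each drug, for the mean of the 5 drugs and for the F test over the 6 groups. The background was the same: 0 probe sets, or 0.0%, were called in each of these 7 tests. The median probe set had a 95% interval reaching 0.38 log2 units to either side of a difference from Control. This interval is not adjusted for the 41345 tests and covers all probe sets, where the members varied more than most. Even a member difference of -1.9 was not called, so differences well above 0.38 could go undetected with 2 arrays a group.

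Duloxetine gave the most one-sided values. Of the 75 members, 28 were lower at an unadjusted limma p under 0.05 (20 C/D box and 8 H/ACA box; 37.3%), where 4.98% of all probe sets were, and 1 was higher, where 4.05% of all probe sets were. Both Duloxetine arrays lay below both Control arrays for 48 of the 75 members, against 17.8% of all probe sets. They lay above for 2, or 2.67%, against 17.2%. The difference from Control was negative for 41 of 47 C/D box members (median -0.41) and 25 of 28 H/ACA box members (median -0.29). Of all probe sets, 48.9% were negative, with a median of 0.005. Among the 20674 probe sets at or above the median signal, the Duloxetine median was -0.05. The members among them had medians of -0.385 (C/D box) and -0.287 (H/ACA box). Fewer cells of a type and less RNA per cell cannot be told apart in these bulk cultures, nor can either be told from a technical difference between arrays. The Spearman correlation of gene length with the Duloxetine difference was 0.32 for C/D box members (shorter genes lower) and -0.05 for H/ACA box members. With the Mirtazapine difference it was 0.36 and -0.3. A part of length in the values was not tested.

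The first Duloxetine array, which did not stand apart over the whole array, was by itself below both Control arrays for 58 of the 75 members, against 35.1% of all probe sets. The second was below both for 55, against 37.9%. The Duloxetine count of 28 lower members moved with single arrays. It was 13 without Duloxetine replicate 2, 10 without Control replicate 1 and 15 without the 2 arrays that stand apart.

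Mirtazapine gave a mixed pattern. At an unadjusted limma p under 0.05, 12 members were lower (background 7.24%) and 6 were higher (background 7.24%). Both Mirtazapine arrays lay below both Control arrays for 32 of the 75 members, or 42.7%, against 21.8% of all probe sets, and above for 11, or 14.7%, against 26.2%. The C/D box differences were negative for 39 of 47 members (median -0.2), and the H/ACA box differences for 14 of 28 (median -0.01). Of all probe sets, 45.2% were negative, with a median of 0.03. Among the 20674 probe sets at or above the median signal, the Mirtazapine median was -0.06. The members among them had medians of -0.165 (C/D box) and -0.203 (H/ACA box). The count of 12 was 4 without Mirtazapine replicate 2 and 4 without Control replicate 1.

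The other 3 drugs gave fewer such values. Below both Control arrays lay 5 members for Amitriptyline (background 17.1%), 12 for Citalopram (18.9%) and 1 for Imipramine (16.0%). Above both lay 17 for Amitriptyline (18.6%), 5 for Citalopram (16.3%) and 21 for Imipramine (13.7%). Imipramine differences were positive for 38 of 47 C/D box members (median 0.11) and 25 of 28 H/ACA box members (median 0.13), against 47.6% of all probe sets, but without Control replicate 2 the medians were 0.01 and 0.005. Amitriptyline differences were positive for 31 of 47 (median 0.08) and 24 of 28 (median 0.09), against 51.5% of all probe sets, but without Control replicate 2 the medians were 0.02 and -0.045. Citalopram differences were negative for 31 of 47 (median -0.11) and 21 of 28 (median -0.07), against 50.5% of all probe sets, and without Citalopram replicate 1 the medians were 0.115 and 0.065. At an unadjusted limma p under 0.05, 2 members were higher (background 2.77%) and 0 lower (2.04%) for Amitriptyline. For Citalopram 1 was lower (1.9%) and 0 higher (1.26%), and for Imipramine 1 was higher (1.43%) and 0 lower (1.8%). All 5 comparisons share the same 2 Control arrays.

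**Figure D3:**
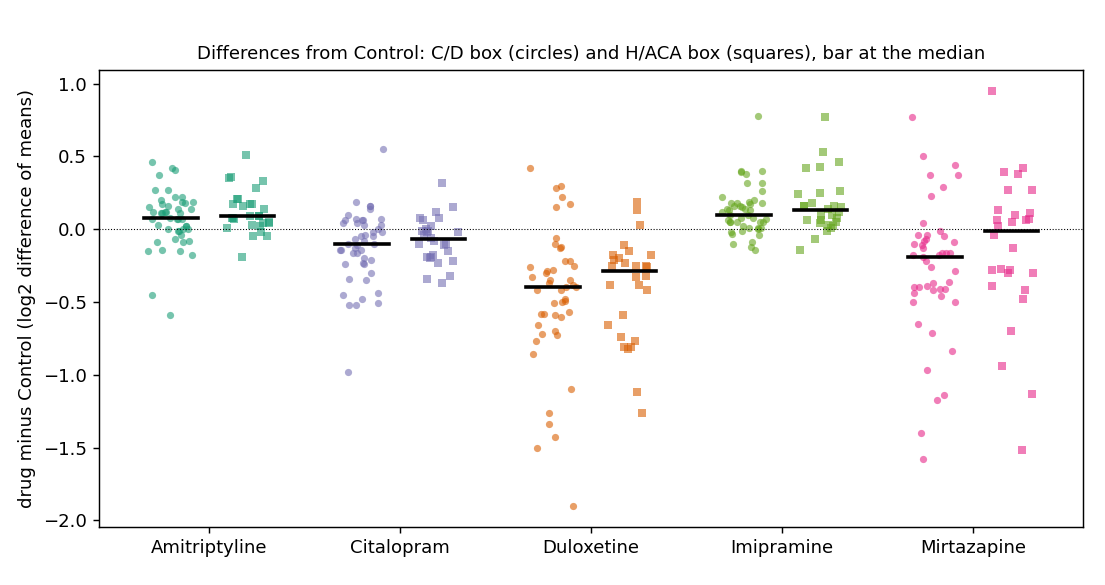
Difference of each drug's mean from the Control mean, in log2 units, for every C/D box member (circles) and H/ACA box member (squares); bars mark the class medians. The Duloxetine medians are -0.41 and -0.29, and the lowest single difference, -1.9, is also under Duloxetine.

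Amitriptyline and Imipramine are the only pair given at the same dose, and they were compared directly. Both are tricyclic tertiary amines. The central ring of Imipramine holds a nitrogen that carries the side chain, where Amitriptyline has a carbon joined to the side chain by a double bond. No member differed at an adjusted p under 0.05 in limma (0 of 75; 0.0% of all probe sets), and 0 had an unadjusted limma p under 0.05 in either direction, where 2.10% of all probe sets were lower and 0.689% higher. Both Imipramine arrays lay above both Amitriptyline arrays for 19 members (background 15.0%) and below for 6 (17.4%). The median difference of Imipramine minus Amitriptyline was 0.03 log2 units for C/D box and 0.04 for H/ACA box members. The median 95% interval over the members, not adjusted for the number of tests, reached 0.49 log2 units to either side. Most differences within that span, and some larger ones, were therefore not detectable. The member of lowest p was Snora31, at 0.38 with a 95% interval from -0.02 to 0.77 (adjusted p = 1 in limma).

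Among H/ACA box members, Snora15, cut from an intron of the chaperonin subunit gene Cct6a, had the lowest p of all members for Mirtazapine and in the F test. Its signal was 8.21 and 8.14 on the Control arrays, 6.98 and 6.34 under Mirtazapine and 7.44 and 6.68 under Duloxetine. Amitriptyline gave 8.31 and 7.94, Citalopram 7.67 and 8.01, and Imipramine 8.33 and 8.23. The Mirtazapine and Duloxetine arrays were the 4 lowest of the 12. The difference from Control was -1.52 ± 0.28 (SE, n = 2 arrays a group) for Mirtazapine, 2.86-fold lower, with a limma adjusted p of 0.138. For Duloxetine it was -1.12 ± 0.28, 2.17-fold lower, with a limma adjusted p of 0.551. The host Cct6a differed by -0.18 ± 0.17 under Mirtazapine and -0.19 ± 0.17 under Duloxetine.

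Snora15 under Mirtazapine passed the test where fewer probe sets were tested. Its limma adjusted p was 0.0475 over the 20674 probe sets at or above the median signal, and 0.0251 over the brightest probe set of each of 17467 genes at or above the 30th percentile. In the former 1 of 53 members was called, beside 185 probe sets (0.895%). In the latter 2 of 59 members were called, Snora15 and Snora16a, beside 304 genes (1.74%). Over all alternatives the limma adjusted p of Snora15 ran from 0.0251 to 0.635 and the difference from -1.84 to -1.2.

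Snora34, from an intron of Kansl2, a subunit gene of a histone acetyltransferase complex, had a like pattern. It read 8.19 and 8.09 on the Control arrays, 7.16 and 6.86 under Mirtazapine, and 7.66 and 6.1 under Duloxetine. Those arrays were again the 4 lowest of the 12. The difference was -1.13 ± 0.41 for Mirtazapine (limma adjusted p = 0.303) and -1.26 ± 0.41 for Duloxetine (limma adjusted p = 0.551). The second Duloxetine array carried most of the latter, which was -0.48 without it and -2.04 without the first. Kansl2 itself differed by 0.01 and -0.1. The other member in it, Snora2b, overlapped with Control under both drugs. The overlap of Snora34 with the Mir1291 hairpin, printed above, means that RNA of either could reach a probe in the shared 73 bases.

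Snora31, inside the translationally controlled tumor protein gene Tpt1, was low under Duloxetine and high under Imipramine. Control gave 7.82 and 7.55, Duloxetine 7.1 and 6.78, and Imipramine 8.29 and 8.0. Neither drug overlapped with Control. The differences were -0.74 ± 0.17 for Duloxetine (limma adjusted p = 0.551) and 0.46 ± 0.17 for Imipramine (limma adjusted p = 1). Tpt1 differed by -0.34 ± 0.21 and -0.18 ± 0.21.

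Snora21 gave 10.47 and 9.92 under Control and 9.69 and 9.16 under Duloxetine, a difference of -0.77 ± 0.22 (limma adjusted p = 0.551). Snora28, inside the translation initiation factor gene Eif5, read 8.62 and 8.52 under Control and 8.29 and 7.24 under Duloxetine. Snora69, inside the ribosomal protein gene Rpl39, read 7.7 and 7.35 under Control and 7.22 and 6.18 under Duloxetine. In both of the latter the second Duloxetine array carried most of the difference. Snora7a, inside Rpl32, read 9.07 and 8.95 under Control and 8.59 on both Mirtazapine arrays, a difference of -0.42 ± 0.12 (limma adjusted p = 0.245).

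A few H/ACA box members had higher values. Snora41, inside the elongation factor gene Eef1b2, read 5.6 and 5.55 under Control and 5.96 on both Mirtazapine arrays, a difference of 0.39 ± 0.11 (limma adjusted p = 0.245); its signal lay below the 30th percentile of all probe sets. Snora23 read 9.43 and 9.23 under Control and 9.7 and 9.65 under Amitriptyline, a difference of 0.35 ± 0.11 (limma adjusted p = 0.741). The brighter Snora33 probe set read 11.35 and 11.63 under Control and 11.95 and 11.89 under Imipramine, a difference of 0.43 ± 0.21 (limma adjusted p = 1). The dimmer Snora33 probe set gave 0.06 there.

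U17, the H/ACA box RNA needed to process the precursor of 18S ribosomal RNA, is measured as Snora73a and Snora73b, both inside Snhg3. Snora73b read 9.06 and 8.21 under Control, the highest and the lowest of its 12 values. Snora73a read 8.77 and 8.18 there. Every drug overlapped with Control for both.

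Among C/D box members, Snord43, inside the ribosomal protein gene Rpl3, had the lowest p for Duloxetine. It read 6.36 and 6.48 under Control and 5.85 and 5.59 under Duloxetine, and every other array lay between 6.22 and 6.58. The difference was -0.7 ± 0.14, 1.62-fold lower, with a limma adjusted p of 0.551. Rpl3 differed by -0.05, and the other member inside it, Snord83b, by -0.22.

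The largest Duloxetine difference was that of Snord58b, inside the ribosomal protein gene Rpl17. Control gave 6.24 and 6.44, Duloxetine 5.21 and 3.67, and Mirtazapine 5.79 and 4.96. The groups did not overlap with Control, but the Duloxetine arrays were far from each other. The difference was -1.9 ± 0.45 for Duloxetine, 3.73-fold lower (limma adjusted p = 0.551), and -0.97 ± 0.45 for Mirtazapine (limma adjusted p = 0.357). Without Duloxetine replicate 2 the Duloxetine difference was -1.13. Rpl17 differed by -0.6 ± 0.23 and -0.51 ± 0.23.

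Snord61, inside the RNA-binding protein gene Rbmx, read 7.27 and 7.03 under Control, 6.19 and 5.43 under Duloxetine and 6.34 and 5.62 under Mirtazapine. The differences were -1.34 ± 0.35 (limma adjusted p = 0.551) and -1.17 ± 0.35 (limma adjusted p = 0.273), and Rbmx differed by -0.13 and -0.07. The first Citalopram array, at 6.25, was as low, and the second, at 7.1, was not.

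Snord70, inside the C/D box core protein gene Nop58, was dim, at 5.44 and 4.75 under Control. It read 4.24 and 2.95 under Duloxetine, 4.25 and 3.13 under Mirtazapine, 3.73 and 4.5 under Citalopram and 4.48 and 4.53 under Amitriptyline. Those 8 arrays were all below both Control arrays. The differences were -1.5 ± 0.48 for Duloxetine, -1.4 ± 0.48 for Mirtazapine, -0.98 ± 0.48 for Citalopram and -0.59 ± 0.48 for Amitriptyline, with limma adjusted p-values of 0.551, 0.291, 1 and 0.999. Nop58 differed by -0.22 under Duloxetine and -0.3 under Mirtazapine, and Snord11, in the same host, by -0.13 and -0.37.

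Snord1b read 5.51 and 5.41 under Control, 4.85 and 3.21 under Duloxetine and 4.48 and 4.16 under Mirtazapine. Snord72, inside Rpl37, read 5.19 and 5.53 under Control, 4.57 and 3.62 under Duloxetine and 4.62 and 2.94 under Mirtazapine. Among C/D box members, a difference of -1 or below was found in 6 of the 17 with a mean signal under 7 for Duloxetine and 4 of the 17 for Mirtazapine, and in 0 of the 30 brighter ones for either drug. In the H/ACA box class, 2 of the 20 brighter members (Snora15 and Snora34) reached it for each of these drugs and 0 of the 8 dimmer ones. In every one of these cases, in both classes, the second array of the drug, which stood apart, read lower than the first. How often all probe sets, or equally dim ones, reached -1 was not counted, so these counts have no background. The median Duloxetine difference was -0.37 in the 30 brighter C/D box members and -0.51 in the 17 dimmer ones.

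**Figure D4:**
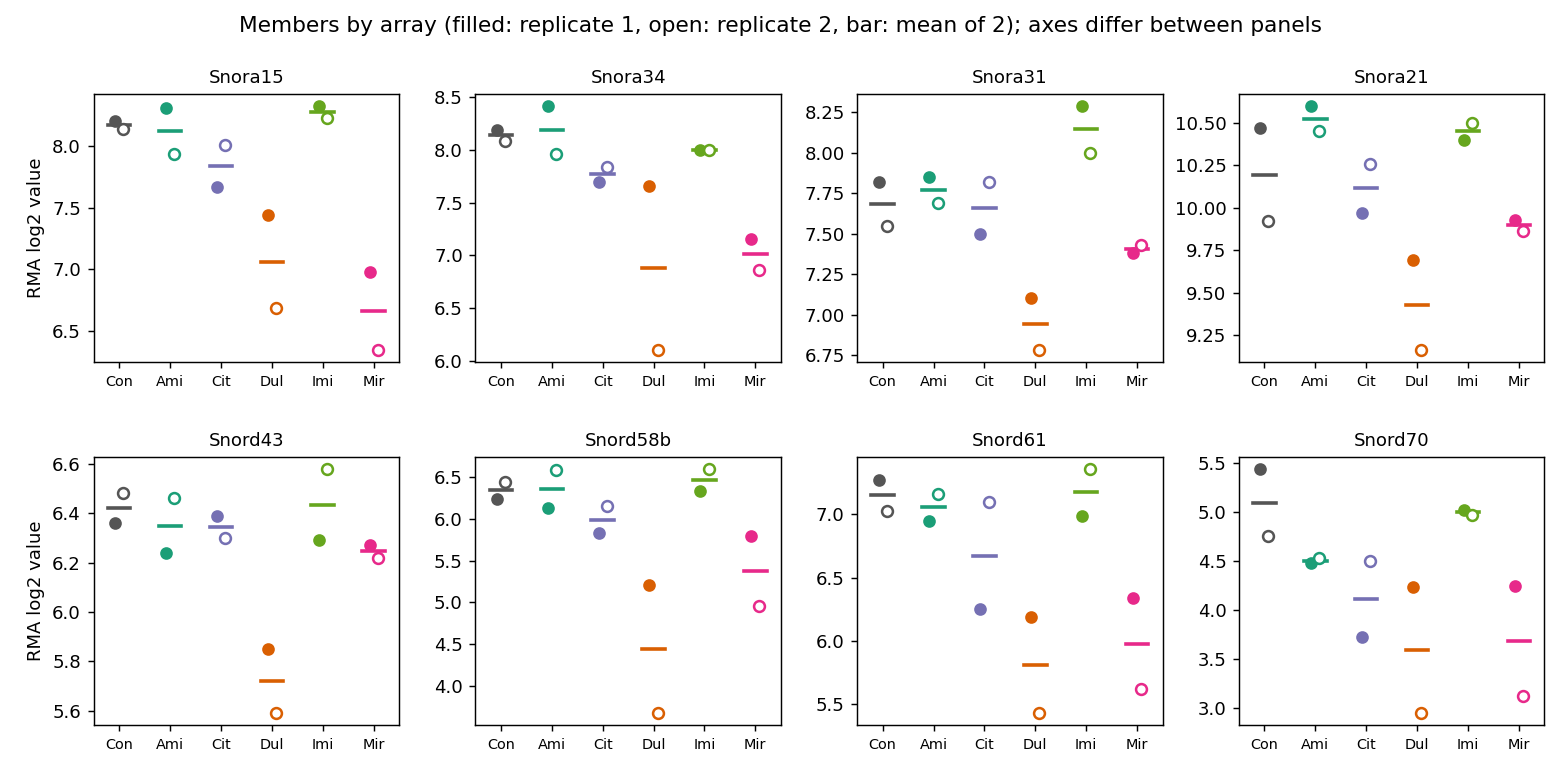
RMA log2 values of 8 members on the 12 arrays (filled, replicate 1; open, replicate 2; bar, mean of 2), each panel with its own axis. Snora15 and Snora34 have their 4 lowest values under Duloxetine and Mirtazapine, and Snord43 has its 2 lowest under Duloxetine, at 5.85 and 5.59.

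Members with known tasks in ribosomal RNA processing were described apart. Snord118 (U8), required to process the precursor of 5.8S and 28S ribosomal RNA, had the lowest p of all members for Citalopram. It read 7.28 and 6.75 under Control, 6.47 and 6.52 under Citalopram and 6.63 and 6.55 under Duloxetine. The difference was -0.52 ± 0.19 for Citalopram (limma adjusted p = 1) and -0.42 ± 0.19 for Duloxetine (limma adjusted p = 0.552). Snord13 (U13), the guide for acetylation of 18S ribosomal RNA, read 9.39 and 8.51 under Control, 8.28 and 7.91 under Duloxetine and 8.17 and 8.31 under Mirtazapine. Both drugs lay below both Control arrays, but the Control arrays differed from each other by as much as the drugs did from Control. The differences were -0.86 ± 0.34 and -0.71 ± 0.34, with limma adjusted p-values of 0.551 and 0.363.

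Snord22 (U22), which lies inside Snhg1 and acts in maturation of 18S ribosomal RNA, read 7.39 and 7.23 under Control and 7.05 and 6.88 under Duloxetine. The difference was -0.35 ± 0.12 (limma adjusted p = 0.551), and Snhg1 differed by -0.25 ± 0.13. Snord47, from Gas5, read 9.47 and 9.4 under Control, 9.17 and 8.54 under Duloxetine and 9.1 and 8.47 under Mirtazapine. Snord35a, from the ribosomal protein gene Rpl13a, read 9.75 and 9.55 under Control and 9.06 and 9.63 under Duloxetine, which overlap. Snord35b read 9.02 and 8.52 under Control and 8.03 and 7.97 under Duloxetine, a difference of -0.77 ± 0.2 (limma adjusted p = 0.551). Probe sets of Snord3, Snord14 and the Snrpn locus were not analysed here.

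Over the mean of the 5 drugs, the members of lowest p were Snora15 (-0.58 ± 0.22, limma adjusted p = 0.802), Snord35b (-0.4) and Snord70 (-0.92 ± 0.38, limma adjusted p = 0.835). At an unadjusted limma p under 0.05, 3 members were lower and 0 higher, against 3.25% and 2.52% of all probe sets. In the F test over the 6 groups, 27 members had an unadjusted limma p under 0.05 (36.0%), against 7.81% of all probe sets, and the lowest adjusted p was 0.395, for Snora15. Snora31 and Snord43 followed, at limma adjusted p-values of 0.422 and 0.523.

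The members of lowest p for Amitriptyline after Snora23 were Snord88c (0.46 ± 0.17, limma adjusted p = 0.921) and Snord37. Snord88c read 8.51 and 8.2 under Control and 8.84 and 8.79 under Amitriptyline. Snord37, inside the elongation factor gene Eef2, read 7.23 and 7.24 under Control, 7.68 and 7.54 under Amitriptyline and 6.96 and 6.18 under Duloxetine. Snord42b, inside Rpl23a, read 8.74 and 8.8 under Control and 8.91 and 9.08 under Imipramine, a difference of 0.22 ± 0.11 (limma adjusted p = 1). Snord23, inside the ribosome assembly factor gene Nop53, read 9.8 and 9.88 under Control and 10.04 and 10.63 under Mirtazapine.

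Members that share a host did not all share a direction. Snhg12 holds 4 members and read 7.13 and 7.03 under Control and 7.09 and 7.2 under Mirtazapine, a difference of 0.07. Inside it, Snora16a read 9.9 and 9.37 under Control and 8.55 and 8.85 under Mirtazapine, below all other arrays. Its difference was -0.94 ± 0.21, 1.91-fold lower, with a limma adjusted p of 0.188, or 0.047 over the brightest probe set of each gene. Snora44 read 9.37 and 8.92 under Control and 9.53 and 9.6 under Mirtazapine, the highest 2 of its 12 values, a difference of 0.42 ± 0.17 (limma adjusted p = 0.33).

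Snora61 read 7.39 and 7.59 under Control and 7.65 and 7.87 under Mirtazapine, a difference of 0.27 ± 0.19 (limma adjusted p = 0.486). Snord99 read 9.78 and 9.73 under Control and 9.37 and 9.32 under Mirtazapine, a difference of -0.41 ± 0.24 (limma adjusted p = 0.411). In Snhg12, then, 2 members lay above and 2 below both Control arrays under Mirtazapine. Such positions were common, as 26.2% of all probe sets lay above and 21.8% below both Control arrays under this drug. Snora61 cleared Control only narrowly, with its lower Mirtazapine value at 7.65 against a higher Control value of 7.59. The differences between members of 1 host were not tested.

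Ncl, the gene of the nucleolar protein nucleolin, holds Snora75 (U23) and Snord82. Snora75 read 9.07 and 8.46 under Control, 9.5 and 9.94 under Mirtazapine and 8.43 and 7.48 under Duloxetine. Its difference was 0.95 ± 0.39 for Mirtazapine (limma adjusted p = 0.33) and -0.81 ± 0.39 for Duloxetine (limma adjusted p = 0.555), so it lay on opposite sides of Control under these drugs. Without Duloxetine replicate 2 the Duloxetine difference was -0.34. Snord82 read 12.03 and 11.72 under Control, 11.72 and 11.25 under Mirtazapine and 11.49 and 11.08 under Duloxetine. The Ncl probe set differed by -0.17 ± 0.15 under Mirtazapine and -0.19 ± 0.15 under Duloxetine.

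Rps3a1, a ribosomal protein gene, holds Snord73a and Snord73b. Snord73a read 5.37 and 5.7 under Control, 5.76 and 6.15 under Duloxetine and 5.87 and 5.95 under Mirtazapine, above both Control arrays. Snord73b read 10.6 and 9.79 under Control, 9.63 and 9.32 under Duloxetine and 9.39 and 9.31 under Mirtazapine, below both. Wdr43, a ribosome assembly factor gene, differed by -0.24 under Mirtazapine while Snord53 and Snord92 inside it differed by 0.77 and 0.37. The 2 Control values of Snord53 were 8.57 and 9.53, and its Mirtazapine values of 9.3 and 10.33 overlapped with them.

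Snora35 is known from brain and lies inside Htr2c, the gene of the serotonin 2C receptor. Htr2c read 6.57 and 6.47 under Control and between 5.63 and 6.33 on the drug arrays, all below both Control arrays. Such an order held for 2.2% of all probe sets for values below and 1.34% for values above Control, and for 0 of the 75 members in either direction. Mirtazapine gave 6.1 and 5.63 and Amitriptyline 6.04 and 6.08. The difference was -0.66 ± 0.15 for Mirtazapine (limma adjusted p = 0.187) and -0.46 ± 0.15 for Amitriptyline (limma adjusted p = 0.755). Snora35 read 6.59 and 6.76 under Control and 6.61 and 6.77 under Mirtazapine, a difference of 0.02 ± 0.13, and its 12 values spanned 0.44 log2 units.

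**Figure D5:**
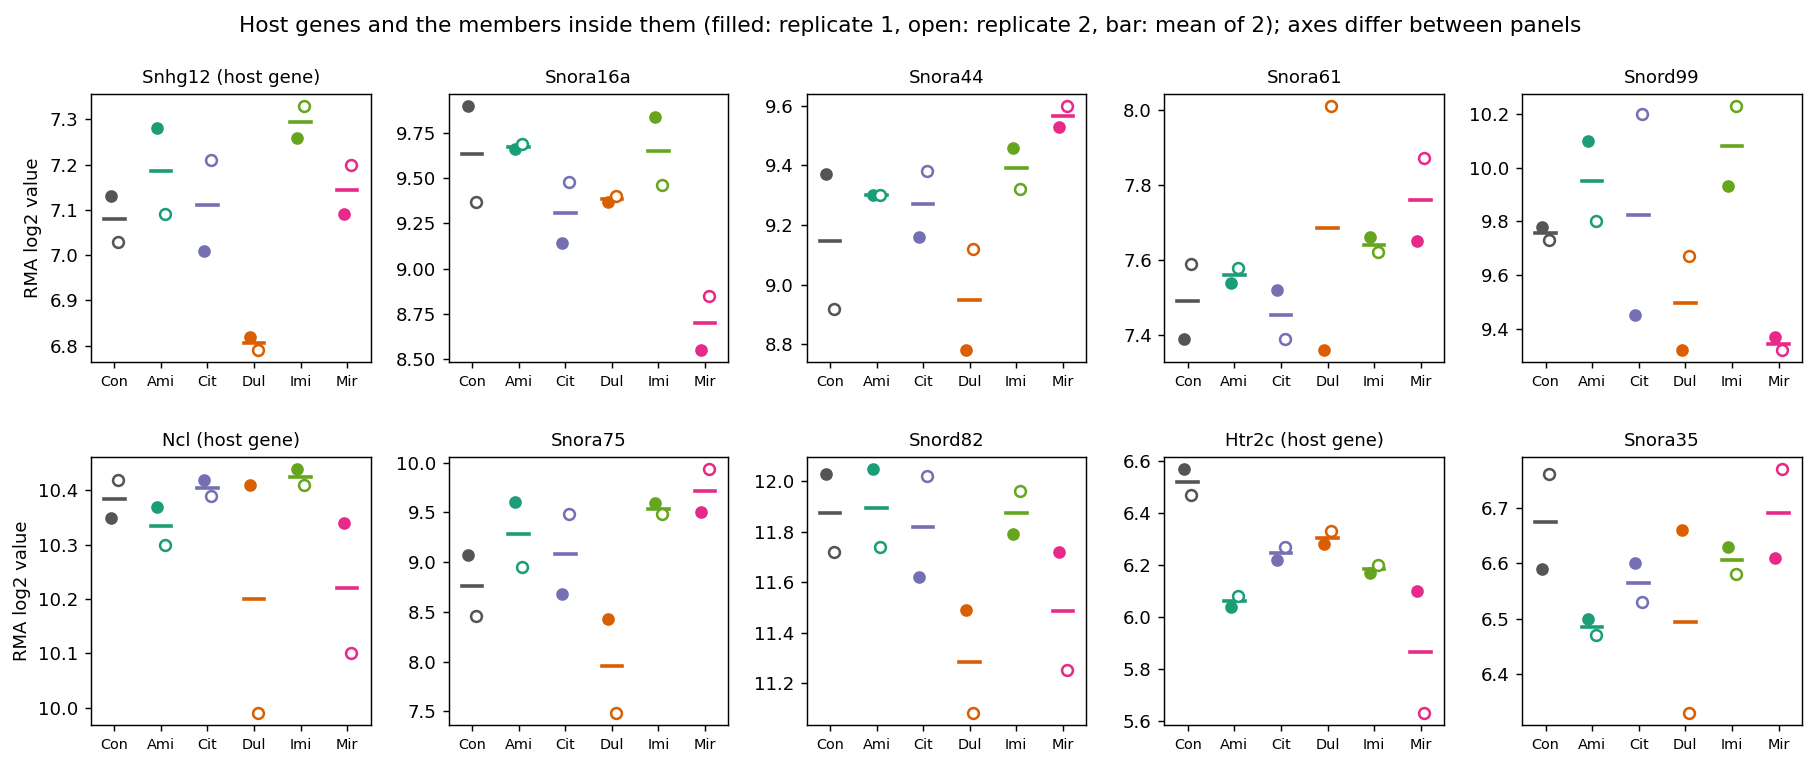
RMA log2 values of the hosts Snhg12, Ncl and Htr2c and of members inside them on the 12 arrays (filled, replicate 1; open, replicate 2; bar, mean of 2), each panel with its own axis. Under Mirtazapine, Snora16a and Snord99 lie below and Snora44 and Snora61 above both Control arrays, while Htr2c lies below and Snora35 overlaps with them.

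Across the 46 hosts, 0 were called in any comparison at a limma adjusted p under 0.05. Under Duloxetine, 39 hosts had a negative difference (median -0.15), against 48.9% of all probe sets, beside 55 of the 62 members inside them (median -0.36). At an unadjusted limma p under 0.05, 5 of the 46 hosts were lower (background 4.98%) and 0 higher (background 4.05%). The 5 were 2410006H16Rik (-0.46), Snhg3 (-0.58), Rpl17 (-0.6), Zbed3 (-0.3) and Snhg12 (-0.27). The Rpl17 probe set was dim, and the second Duloxetine array carried most of its difference. Under Mirtazapine 39 hosts had a negative difference (median -0.12), against 45.2% of all probe sets, beside 42 of the 62 members (median -0.17). Wdr43 read 9.76 and 9.58 under Control, 9.63 and 9.26 under Duloxetine and 9.63 and 9.22 under Mirtazapine. There only the second array of each drug, which stood apart, lay below both Control arrays. Snhg3 read 8.03 and 7.47 under Control, 7.33 and 7.01 under Duloxetine and 7.32 and 7.04 under Mirtazapine, with both arrays of each drug below. Host medians were not computed for single arrays, but the 2 Duloxetine arrays did not share the host values evenly. Cct6a read 11.11 and 11.23 under Control and 11.24 and 10.72 under Duloxetine. In Eif5, Ipo7 and Nop58, too, the first Duloxetine array lay above both Control arrays and the second below both. In 2410006H16Rik, Zbed3 and Snhg12, as in Snhg3, both Duloxetine arrays lay below. Sign was shared between member and host for 48 of the 62 members under Duloxetine and 39 under Mirtazapine. Since most members and most hosts were negative, many signs are shared without any link, and these counts do not test one. Hosts and members of 1 comparison share the same arrays.

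Genes of proteins that carry or build the small RNA complexes, and spliced hosts, were followed as lists. At a limma adjusted p under 0.05, 0 genes were called in the list of C/D box core proteins (3 of 5 measured), H/ACA box core proteins (4 of 4), assembly and Cajal body factors (16 of 16) or spliced hosts without a conserved protein (17 of 22). Under Duloxetine the C/D box core gave -0.22 for Nop58, -0.13 for Snu13 and 0.04 for Nop56. The H/ACA box core gave -0.38 ± 0.28 for Dkc1, -0.1 for Nhp2, -0.1 for Nop10 and -0.07 for Gar1. The assembly factors were negative for 12 of 16 (median -0.1), with 0 at an unadjusted limma p under 0.05. Npm1, which encodes a nucleolar chaperone, gave -0.54 ± 0.28. The assembly factor mean was 8.97 and 8.99 on the Control arrays and 9.0 and 8.74 on the Duloxetine arrays. For the H/ACA box core it was 9.17 and 9.24 against 9.18 and 8.89. For the C/D box core it was 10.49 and 10.4 against 10.43 and 10.25. In these lists only the second Duloxetine array, which stood apart, lay below both Control arrays. The spliced hosts were negative for 15 of 17 (median -0.17), of which 4 had an unadjusted limma p under 0.05, where 4.98% of all probe sets were lower. The spliced host mean was 8.39 and 8.31 on the Control arrays and 8.23 and 8.12 on the Duloxetine arrays, both lower.

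Under Mirtazapine the C/D box core was negative for 3 of 3 (median -0.15), the H/ACA box core for 3 of 4 (median -0.16), the assembly factors for 13 of 16 (median -0.13) and the spliced hosts for 11 of 17 (median -0.04). The assembly factors held 3 genes lower at an unadjusted limma p under 0.05 (background 7.24%), which were Rpap3 (-0.57), Ruvbl1 (-0.38) and Nufip1 (-0.33). Among the spliced hosts 1 gene was lower, Snhg3 (-0.57), and 1 was higher, Snhg11 (background 7.24% in either direction). The Snhg11 difference was 0.89 ± 0.15 for Mirtazapine (limma adjusted p = 0.136), 0.64 for Amitriptyline, 0.49 for Citalopram, 0.43 for Imipramine and 0.25 for Duloxetine. Under Imipramine the same lists had medians of 0.08, 0.08, 0.04 and 0.1. Under Amitriptyline they were -0.02, -0.04, -0.02 and 0.07, and under Citalopram -0.06, -0.01, 0.02 and -0.02.

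The cell type marker lists held 0 called genes. Markers of dividing cells had a median difference of -0.1 for Duloxetine, -0.53 for Imipramine, -0.61 for Citalopram, -0.63 for Amitriptyline and -0.7 for Mirtazapine. All 9 measured markers were negative for every drug. Oligodendrocyte lineage markers had a median of 0.32 under Duloxetine (6 of 7 positive) and between -0.5 and -0.31 under the other drugs. Under Duloxetine the medians were 0.02 for neuron markers, 0.01 for astrocyte, 0.03 for microglia and macrophage, 0.21 for endothelial and 0.22 for fibroblast and pericyte markers. Under Mirtazapine they were -0.09, -0.4, 0.1, 0.13 and 0.17. The part of cell makeup in the members' values was not tested.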

How the data were processed

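RNA (100 ng total RNA per array, per the labels' protocols) was hybridised to 12 Affymetrix arrays. The authors made the deposited log2 values with Affymetrix Expression Console and RMA, per the submitters' processing notes; the labels state neither versions nor a genome build. RMA values carry no depth. By GEO's platform annotation, 23521 probe sets had 1 symbol, 1814 several and 16010 none.

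All 12 arrays and 41345 probe sets entered 1 limma fit (limma 3.58.1, R 4.3.3; lmFit, eBayes without trend, no filter; 6 residual and 2.76 prior degrees of freedom). Tests were two-sided, adjusted by Benjamini-Hochberg, called under 0.05. The fit was also run on simulated data with independent noise and with changes added to Mirtazapine only. That simulation held no deviation shared over a whole array, so it does not cover arrays that stand apart. Named members are those of lowest p, brightest signal or largest spread, plus U8, U13, U17 and members inside Gas5, Snhg1 and Rpl13a. Snora7a, Snora35, members of shared hosts not covered by that rule, and the Imipramine against Amitriptyline comparison, were chosen after values were seen. Members and lists were chosen with earlier results of these data known. Hosts were matched by position without strand; the host's brightest probe set stands for it. The labels do not say whether replicate numbers pair the arrays, and the main fit did not pair them. Figures used matplotlib 3.10.9.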

Additional observations from a re-analysis of the deposited data

How the results depend on the processing

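Filters at the 30th and 50th percentile, 1 probe set (the brightest) per gene, array weights, a repeated quantile normalization, a robust trended eBayes, a minimum difference of 0.5, the replicate block, single arrays left out, both arrays that stand apart left out, and fits of only the 4 arrays compared were tried. The unadjusted counts, the counts below both Control arrays with 1 array left out, and the Imipramine against Amitriptyline contrast were added after seeing the data. Of 30 member differences recomputed under each alternative that kept the probe set, 0 reversed. These 30 were picked for their lowest p or by hand in these same data, so a reversal was unlikely from the start. Other differences printed for members were not followed this way. Under Mirtazapine, 1 member was called with the 50th percentile filter (H/ACA box median -0.203) and 2 with the brightest probe set per gene; fewer probe sets were tested there. The Duloxetine count of 28 lower members was 17 with array weights, 15 without both arrays that stand apart and 17 with only the 4 arrays.

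With 1 array left out, 0 to 5 members were called under Duloxetine: without Duloxetine replicate 1, 415 of all probe sets (1.0%) were called, and the 5 were Snord37, Snord1b, Snora34, Snord58b and Snora69, on the lone array that stands apart, assumed to vary like other groups. Lower members ranged from 10 to 35 under Duloxetine and 4 to 17 under Mirtazapine; members below both Control arrays from 49 (background 28.5%) to 62 (31.1%) and 32 (31.7%) to 52 (32.8%), counts that leaving out an array can only keep or raise. C/D box medians ranged from 0.02 to 0.16 under Amitriptyline, 0.01 to 0.18 under Imipramine, -0.33 to 0.115 under Citalopram, -0.52 to -0.315 under Duloxetine and -0.3 to -0.16 under Mirtazapine. H/ACA box medians ranged from -0.045 to 0.22 under Amitriptyline, -0.188 to 0.082 under Citalopram, -0.482 to -0.145 under Duloxetine, 0.005 to 0.285 under Imipramine and -0.368 to 0.04 under Mirtazapine. Both Citalopram medians and the H/ACA box medians of Amitriptyline and Mirtazapine changed sign with single arrays. The cause was not tested.

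The replicate block called 0 members in every comparison and left 26 lower under Duloxetine and 10 under Mirtazapine. Of 15 correlations of replicate differences between groups (-0.22 to 0.57), 2 were over 0.1.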
